A study of Homo sapiens with 4 samples.

Results

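Cells respond to oxidants and electrophiles, such as those in tobacco smoke, through the transcription factor NRF2, encoded by NFE2L2. KEAP1 binds NRF2 in unstressed cells and hands it to a CUL3 ubiquitin ligase for degradation. When reactive cysteines of KEAP1 are modified, NRF2 accumulates, enters the nucleus and switches on genes for haem and quinone metabolism, glutathione synthesis and the thioredoxin system. The airway epithelium, which meets inhaled smoke first, is a tissue in which this response has been studied widely. N6-methyladenosine (m6A), the base modification measured here, is placed on messenger RNA by a complex whose catalytic subunit is METTL3, and can affect the stability and translation of the transcripts that carry it.

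The genes described are 9 of this pathway: NFE2L2, its inhibitor KEAP1, and 7 genes known as NRF2 targets, HMOX1, NQO1, GCLC, GCLM, SLC7A11, TXNRD1 and SRXN1. Each gene was represented by a window of hg19, between 8 kb (SRXN1) and 136 kb (TXNRD1) long, and an m6A interval belonged to it when it lay at least in part in the window and on the gene's strand. By this rule 3 of the 24729 deposited intervals belonged to the pathway genes. The intervals came from m6A immunoprecipitation (IP) of poly(A) RNA with sequencing, set against input RNA that had not been precipitated, in 16-HBE, an established line of human bronchial epithelial cells. In the METTL3 knockdown condition METTL3 was targeted with siRNA and the cells received 5% cigarette smoke extract (CSE) for 24 h. In the CSE condition the cells, labelled wild type, received the same exposure without that siRNA; the labels name no control siRNA and no cells kept free of smoke extract. Each condition had 1 IP and 1 input sample and 1 deposited list, so no value has a replicate spread and no test between the conditions was possible. The design text names 3 replicates per condition, and the sources used here do not say how they entered a list. The lists hold no read counts and no expression values, so neither the depth, nor the METTL3 knockdown, nor how strongly any of the 9 genes was expressed could be read from them.

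All 3 intervals were in the CSE list, 1 each for KEAP1, HMOX1 and TXNRD1. In the lists as analysed here, none of the 9 windows held an interval of the METTL3 knockdown list. The knockdown list was the longer one, with 13691 intervals against 11038 in CSE. The 3 CSE intervals therefore had no overlap with a knockdown interval, which restates the count of 0; of the whole CSE list 19.9% of intervals had none. Of the whole knockdown list 35.5% of intervals had no overlap with the CSE list, a share to which the pathway genes contributed 0 intervals. The numbers are small: 0 of 13691 knockdown intervals has an exact binomial 95% interval of 0 to 0.0269%. In that list 3 counts would be a share of 0.0219%, which lies within this interval. The 3 of 11038 CSE intervals are a share of 0.0272% with an interval of the same kind of 0.00561 to 0.0794%. At these counts a difference between the lists in the share of intervals from these genes was not detectable. These intervals cover counting error only and treat the entries of a list as independent.

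**Figure D1:**
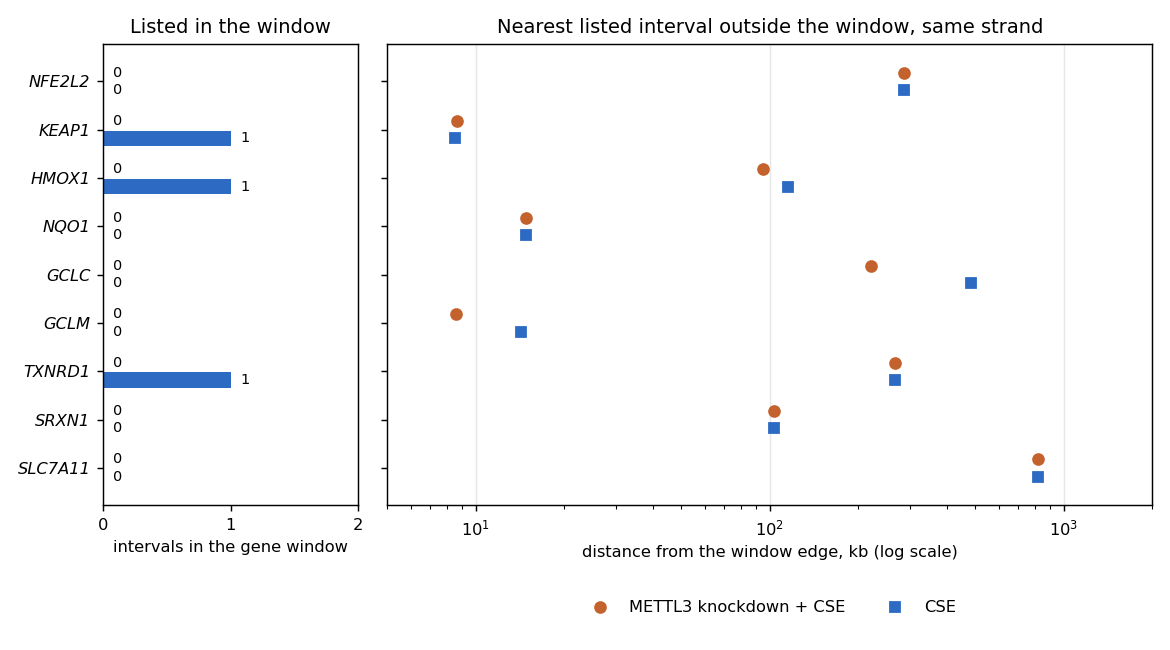
Left, number of listed m6A intervals in the window of each of the 9 genes; right, distance in kb (log scale) from the window to the nearest listed interval of the same strand outside it, with the METTL3 knockdown list (orange, upper) and the CSE list (blue, lower). Only the CSE list had intervals in windows, 1 each at KEAP1, HMOX1 and TXNRD1, and the nearest interval outside lay 8.47 to 815 kb away.

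For each interval found, the width was compared with the exons that GENCODE release 29 gives for that gene. This annotation belongs to another build, GRCh38, so exon lengths and distances within the gene were compared and no position was carried over. All 3 intervals had exactly the width of an annotated exon of their gene. A stricter match, of a pair of intervals to a pair of exons of 1 gene in both widths and in spacing, was counted over the whole lists. It held for 7686 knockdown intervals (56.1%) and 5747 CSE intervals (52.1%). None of the 3 intervals was matched in this way, so these shares are no background for the matches by width. For the 3 intervals no borders were compared, so an exon named below is one matched by width. KEAP1 has 25 distinct exons of 24 widths and TXNRD1 has 65 of 58 widths. How often a width would match by coincidence was not tested. A match also does not show where within an exon the enrichment lay. Only at KEAP1 and TXNRD1 could the position in the window be checked as well as the width. The HMOX1 exon, matched by width alone, is not printed. The sequences below are those of the exons matched at KEAP1 and TXNRD1, from GENCODE release 29 transcripts, 5′ to 3′ on the gene's strand. For KEAP1 they are the central 300 of the 686 bases (bases 194 to 493 of the exon), for TXNRD1 all 77. Capitals mark the m6A consensus known as DRACH: A, G or T, then A or G, then A and C, then A, C or T.
KEAP1 exon 3: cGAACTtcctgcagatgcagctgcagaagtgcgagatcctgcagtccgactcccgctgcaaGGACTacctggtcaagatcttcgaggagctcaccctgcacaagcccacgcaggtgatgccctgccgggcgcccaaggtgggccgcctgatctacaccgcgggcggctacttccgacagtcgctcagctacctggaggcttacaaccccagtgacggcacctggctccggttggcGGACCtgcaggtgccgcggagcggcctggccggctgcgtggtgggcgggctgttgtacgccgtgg
TXNRD1 exon 9: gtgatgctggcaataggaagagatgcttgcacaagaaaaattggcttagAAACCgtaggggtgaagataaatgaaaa

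The printed KEAP1 stretch held 3 matches to the consensus, read on the transcript strand and allowing overlaps. The same central 300 bases of 6342 wholly coding exons of at least that length held a median of 6.0, and 98.5% of them held at least 1. Of these regions 87.3% held at least as many matches as the KEAP1 stretch. The letters GGACT, a form of the consensus often found methylated, stood at 1 place in the stretch and in 28.8% of those 6342 regions. The whole 686-base exon held 9 matches, 2 of them GGACT, and was not compared with other exons of its length. The TXNRD1 exon held 1 match, AAACC, and no GGACT. Of the 951 wholly coding exons of exactly 77 bases, 83% held at least 1 match and 5.99% held GGACT. The unprinted HMOX1 exon held 3 matches and 0 GGACT, and was not compared with other exons. A match is a description of the letters and does not locate a modified base.

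KEAP1, the sensor that keeps NRF2 low, had its CSE interval at chr19:10602253-10602938 of hg19 on the minus strand. It was 686 nt wide with an authors' score of 97.66. The score is a value the authors gave each interval, of unstated scale, and ran from 50.02 to 3233.06 in either list. It is used only to place an interval within its own list. Median scores were 280.1 in the knockdown list and 223.8 in the CSE list. Where scores of both lists are given, no change between the conditions is read from them. The KEAP1 interval stood low in the CSE list, with 23.7% of the list scoring less, and was wide, with 67.9% of the list narrower. Among the 2200 intervals found only in CSE, whose median score was 108.7, it stood near the middle, with 45.4% of them lower. KEAP1 has exons of 686 nt at a pair of places, exon 2 and exon 3 of the transcript KEAP1-201. Where the whole gene lies in its window, the interval starts between 4874 and 6252 nt from the lower gene end, and exon 3, at 5457 nt, falls in this range while exon 2, at 13275 nt, does not. Exon 3 of 6 is wholly coding and covers codons 214 to 442, which encode part of the intervening region and part of the Kelch repeats, the domain that binds NRF2. It ends 547 nt before the end of the coding sequence. The known peak of m6A near stop codons is an average over many mRNAs, and whether this exon departs from it was not tested.

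The nearest knockdown interval to it on the minus strand lay 20.7 kb away, at chr19:10623599-10625128, outside the window. That neighbour was listed in both conditions, with scores of 102.25 in the knockdown list and 62.76 in the CSE list, where it ran from 10623471 to 10625065. A knockdown interval was thus listed near KEAP1, which tells nothing of coverage or expression at KEAP1 itself. In the KEAP1 window only the CSE list had an interval, and why was not tested. Each interval name carries a running number that rises along the chromosome, and most numbers of each list are missing. Up to the highest number, 35156 of 48847 were missing in the knockdown list and 38841 of 49879 in the CSE list. Over the 9 windows the median count missing was 10 with knockdown and 13 in CSE. The CSE list thus lacked more numbers as a whole, and the counts at single genes stand beside this. Between the listed intervals on both sides of the KEAP1 window, 2 numbers were missing in the knockdown list and 2 in the CSE list. Whether a missing knockdown number belonged to KEAP1 was not tested.

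HMOX1 encodes haem oxygenase-1, which breaks down haem and is a widely used marker of oxidative stress. Its CSE interval, chr22:35776927-35777189 on the plus strand, was 263 nt wide with a score of 170.54. In the CSE list 42.1% of intervals scored lower and 48% were narrower, so it lay near the middle of the list in both. It reached over the start of the window, with 189 nt inside and 74 nt before it. Of the 12 distinct exons annotated for HMOX1 only 1 had this width, exon 2 of the transcript HMOX1-202, which is outside the basic set of GENCODE. This exon consists of 240 nt of 5′ UTR followed by 23 coding nt with the start codon, the 5′ part of the message. The match rests on width alone: the interval begins before the window, so the check of position made for KEAP1 and TXNRD1 could not be applied. The nearest knockdown interval on this strand was 94.9 kb away, and 11 numbers were missing between the knockdown intervals that flank the window, against 22 in CSE. These counts cover unlike spans, 362 kb between the flanking intervals in the knockdown list and 286 kb in the CSE list.

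TXNRD1 encodes cytosolic thioredoxin reductase, a selenoprotein that uses NADPH to reduce thioredoxin. Its CSE interval at chr12:104720125-104720201 on the plus strand was only 77 nt wide and had a score of 3100. This is the value at which scores pile up, shared by 620 CSE intervals, with 40 intervals higher. A score of 3100 or more was a minority at any width, with 660 of all 11038 CSE intervals and 36 of the 2200 found only in CSE. Of the 1156 CSE intervals of up to 100 nt, 22 had such a score, and 4 of these 22 were found only in CSE. With the TXNRD1 interval itself counted, 3 CSE-only intervals were as narrow as it or narrower and had at least its score. It was one of the 36 CSE-only intervals with a score of 3100 or more. TXNRD1 also has exons of this width at a pair of places, and with the gene in its window the interval starts 109651 to 111124 nt from the lower gene end. A coding exon at 110568 nt, found in 13 transcripts, falls in this range, and a 5′ UTR exon at 73687 nt does not. In TXNRD1-201 it is exon 9 of 15, covers coding nt 859 to 935 of 1494 and ends 559 nt before the end of the coding sequence.

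**Figure D2:**
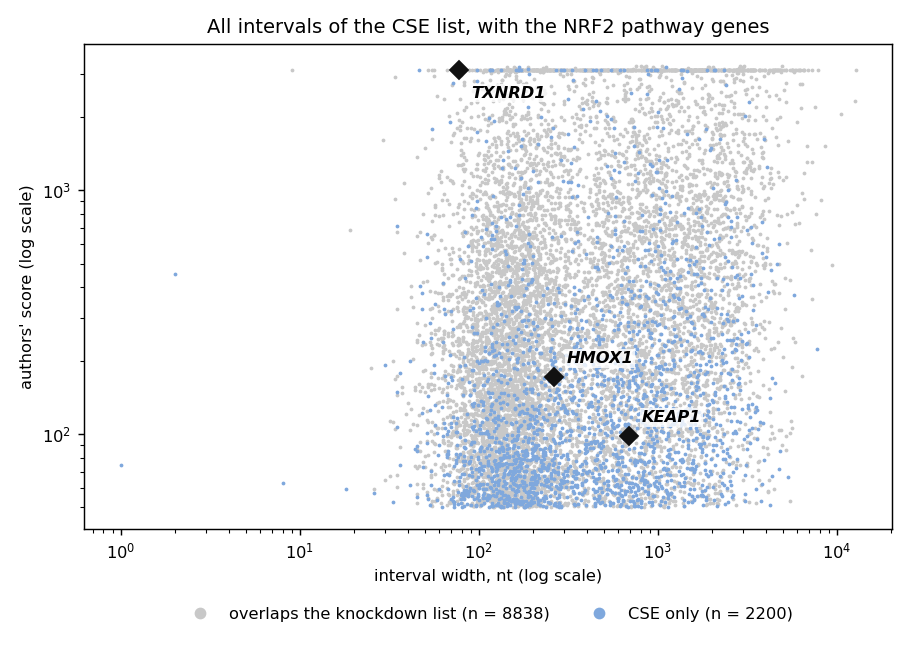
Authors' score against width in nt (both on log scales) of the 11038 CSE intervals, with the 8838 that overlap the knockdown list in grey, the 2200 found only in CSE in light blue and the 3 of the NRF2 pathway genes as black diamonds. TXNRD1 lies at the pile-up of scores at 3100 among the narrow intervals, HMOX1 near the middle and KEAP1 among the wide intervals of low score.

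The surroundings of TXNRD1 were bare in both lists. On the plus strand the nearest listed interval was the same in both conditions, chr12:104341411-104341708, 267 kb before the window and 378 kb from the CSE interval. Its score was 3100 in the knockdown list and 1701.37 in the CSE list. Between the listed neighbours on either side of the window, 809 kb apart, 19 numbers were missing in the knockdown list and 24 in the CSE list. Whether any of the 19 belonged to TXNRD1 was not tested.

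**Figure D3:**
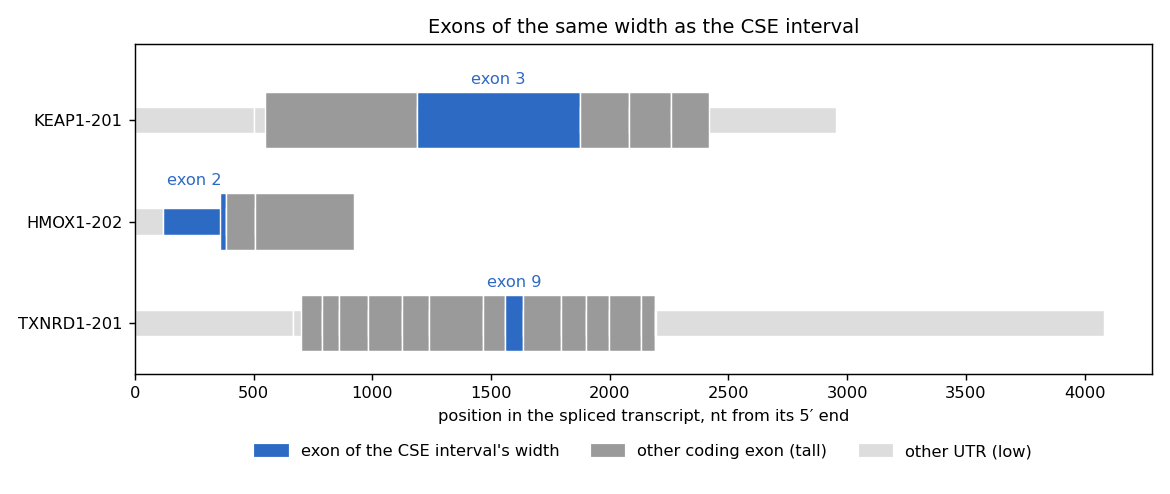
Spliced transcripts of KEAP1, HMOX1 and TXNRD1 in nt from the 5′ end, with coding sequence as tall and UTR as low boxes and the exon that has the width of the CSE interval in blue. The blue exon lies inside the coding sequence of KEAP1-201 (exon 3) and TXNRD1-201 (exon 9), and spans the 5′ UTR and the start codon in HMOX1-202 (exon 2).

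The 3 intervals shared little beyond being found only in CSE. Their scores ran from 97.66 to 3100, and their widths ran from 77 to 686 nt. The exons matched in KEAP1 and TXNRD1 were internal coding exons with their middle at 52.5% and 60% of the coding sequence. That of HMOX1, matched by width alone, held the start of the coding sequence. None of the 3 matched exons was the last exon of its transcript or held a stop codon, which for HMOX1 rests on the match by width. No share of last exons over the whole lists stands beside this, so whether it is unusual was not tested.

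The other 6 genes had 0 intervals in the knockdown list and 0 in the CSE list. For NFE2L2, the regulator itself, the nearest interval of the minus strand began 285 kb beyond the window in both lists. Between the flanking listed intervals, 10 numbers were missing with knockdown and 13 in CSE, over 2275 and 2278 kb. NQO1, a quinone reductase often used as a readout of NRF2, was the gene at which no number was missing in either list. The count was 0 in both lists across the 47.6 kb between the flanking intervals, so that, if the numbers count calls, there was no further call at NQO1 in either condition. The nearest minus-strand interval was 14.8 kb away and had the same borders in both lists, chr16:69775757-69776504, with scores of 833.55 in the knockdown list and 1707.13 in the CSE list.

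GCLC and GCLM form the enzyme that makes the first bond of glutathione, as catalytic and modifier subunit, and SLC7A11 is the cystine carrier that supplies its cysteine. At GCLC the nearest minus-strand interval lay 221 kb away in the knockdown list and 483 kb away in the CSE list. Between the flanking intervals, 14 numbers were missing with knockdown over 1594 kb and 25 in CSE over 1856 kb. At GCLM a knockdown interval of 1595 nt scoring 1846.19, chr1:94341824-94343418, lay 8.58 kb from the window on the minus strand and had no overlap in CSE. The nearest CSE interval there, 14.2 kb away, was 165 nt wide with a score of 67.57 and had no overlap in the knockdown list. Both lie outside the window, which at 24 kb is of about the length of GCLM in RefSeq (24232 nt), and neither is counted for GCLM. SLC7A11 had the widest gap, with the nearest minus-strand interval 815 kb away in both lists and 27 numbers missing with knockdown, against 31 in CSE. SRXN1 encodes sulfiredoxin, which restores overoxidised peroxiredoxins. Its nearest minus-strand interval was 103 kb away with the same borders in both lists, and 1 number was missing between the flanking intervals in the knockdown list and 0 in the CSE list.

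An absent interval does not show an unmethylated transcript: the lists begin at a score of 50.02 and give neither the expression of a gene nor the depth over it. The windows of NFE2L2 and GCLC, 35 and 48 kb, are close to the gene lengths in RefSeq (34425 and 47761 nt). GENCODE gives both genes a longer span, of 165103 and 119630 nt in that order. The GENCODE spans of NQO1 (19956 nt) and GCLM (24252 nt) also exceed their windows, of 18 and 24 kb, by less. The nearest listed interval of the same strand lay 285 kb from the window at NFE2L2 and 221 kb or more at GCLC, farther than the whole GENCODE span. It lay 14.8 kb away at NQO1 and 8.58 kb or more at GCLM. Where the RefSeq gene lies in its window, no such extension reached a listed interval, so none went uncounted for this reason.

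A further 32 genes of the pathway were looked for by the spacing of their exons, since the lists carry no gene names. A gene was recognised where at least 2 intervals of either list matched the widths and the spacing of 2 of its exons and of no other gene. This cannot see a gene with fewer than 2 such intervals, and recognised 2275 of 19936 protein-coding genes (11.4%). Of the 32 pathway genes it recognised 3: BACH1, CUL3 and ABCC1. None of the 9 genes above was recognised in this way, as none had more than 1 interval. The 3 genes had 7 matched intervals, 6 in the knockdown list and 4 in the CSE list. Of the 6 knockdown intervals 3 had no overlap in CSE, beside 35.5% of the whole knockdown list, and of the 4 CSE intervals 1 had none with knockdown, beside 19.9% of the whole CSE list. BACH1 and CUL3 had 2 or more matched intervals only in the knockdown list, and ABCC1 only in the CSE list, so each was recognised through the list in which it had more, and nothing is read from which list that was.

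BACH1, a repressor that competes with NRF2 for its binding sites, had a 1335 nt interval in both lists at chr21:30698380-30699714, the width of exon 3 of BACH1-201. Its score was 71.5 in the knockdown list and 184.65 in the CSE list. An interval of 207 nt, the width of exon 4, followed at chr21:30701808-30702014, scored 75.88 with knockdown and had no overlap in CSE. CUL3, the scaffold of the ligase that KEAP1 serves, had 3 knockdown intervals, of 187, 161 and 454 nt, with scores of 352.08, 149.14 and 83.08. Of these, the 161 nt interval at chr2:225379329-225379489 was also in the CSE list, with a score of 127.71. ABCC1, an exporter of glutathione conjugates, had its last exon, exon 32 of ABCC1-201 with 1902 nt, in both lists with scores of 3100 in the knockdown list and 3202.16 in the CSE list. A 91 nt interval of the width of its exon 21, at chr16:16196484-16196574, was found only in CSE, with a score of 273.57.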

How the data were processed

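m6A intervals of 16-HBE cells were analysed as deposited, 1 list for METTL3 knockdown with CSE and 1 for CSE. The submitters' processing notes name HISAT2 2.0.4 and the build hg19. The interval names begin with MACS. Caller settings, the selection of intervals and the use of replicates were not stated there, nor in the labels. The deposited score of each interval has no stated scale and served to describe, rank or filter intervals within a list. Positions count from 1. Read depths were not used here.

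Intervals were assigned to genes by window and strand, and 1 bp in common on the same strand made an overlap. The 9 genes, the further 32 genes and all rules were chosen with earlier results of these data known; all 9 are described. Exons were those of GENCODE release 29 (GRCh38), and exon pairs were matched by width and spacing within 1 Mb. The overlap and matching steps were tested on simulated data with known answers. Python 3.11.15, SciPy 1.17.1 and matplotlib 3.10.9 were used. Alternatives were 2 score limits, 2 overlap rules, either strand, full containment and windows extended by 5 kb.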

Additional observations from a re-analysis of the deposited data

How the results depend on the processing

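The alternatives that could have added intervals were acceptance of either strand and windows extended by 5 kb; under both, the knockdown list still had 0 intervals and the CSE list 3, none of them overlapping. The other alternatives can only remove intervals or overlaps, so the counts and ratios of 0 could not move under them. With both lists limited to their upper 50% by score, only TXNRD1 was left in CSE, so intervals and genes with an interval there came to 1. A minimum score of 100 removed KEAP1 and full containment in the window removed HMOX1, which left 2 each. The share of knockdown intervals overlapping the CSE list could not be computed, as there were none. No paired analysis was possible because each condition has 1 list and no test was made. Depth was not used here, so what it limits could not be judged.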
